A study of Rattus norvegicus with 12 samples.

Results

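MAP kinases (MAPK) carry growth and stress signals to the nucleus, and the dual-specificity phosphatases (DUSP) switch them off. This account follows the RNA of 9 genes of this system through liver regeneration in the rat: the kinases MAPK3, MAPK8, MAPK9 and MAPK14, the kinases above them MAP2K1 and MAP2K3, the phosphatases DUSP1 and DUSP6, and the transcription factor ATF2. They were chosen by name, with earlier results of these data known, and read in every column of a table of 14692 genes. Of the 9 names, 8 were found in the table. MAPK8 (JNK1) was not analysed here. The mean of each of the 8 genes was 1 RPKM (reads normalised to transcript length and to the mapped reads of the library) or more, a limit that 8459 genes of the table reached.

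Whole liver of male Sprague Dawley rats was sequenced at 0, 4, 12 and 24 h after partial hepatectomy (PH), which removes most of the liver and sets the remnant regrowing. All rats had been operated on 24 h before PH and carried a duodenal catheter that delivered saline. Control rats had a sham operation, rats with a biliary fistula alone lost their bile acid (BA) pool to drainage, and a further group had the fistula with sodium taurocholate, a conjugated BA, added to the duodenal infusion from before PH. The surgery, the catheter, the saline and the PH are therefore common to all groups. By the sample titles, BF is the fistula with no BA given and BA is the fistula with the infusion. The source names and descriptions of the same samples give these 2 groups the other way round. Here BF and BA mean the titles, and every statement on BF against BA would change sides under the other reading. CYP7A1, the rate-limiting enzyme of BA synthesis, which BA suppress, was listed at 387 RPKM in BF at 0 h, at 60.0 RPKM in Control and at 54.9 RPKM in BA. At 4, 12 and 24 h it was at 13.8, 135.9 and 334.4 RPKM in BF and at 1.81, 3.17 and 68.8 RPKM in BA, so that BF was the higher at every time.

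The table has 12 columns, 1 for each of the 3 groups at each of the 4 times. Each column combines 2 sequencing runs, run 1 on RNA of 1 rat and run 2 on pooled RNA of 3 rats, so that 4 rats stand behind a value but no spread between them is known. How the 2 runs were weighted is not given, so that a value need not be an even mean of the 4 rats. No difference at a single time has a replicate check, no p-value is given, and how many reads each column rests on is not known. Differences are log2 ratios of (RPKM + 1), which understates changes of weakly expressed genes, and a gene is said to have risen or fallen when its ratio reached 2-fold (1 on the log2 scale). In bulk liver, fewer cells of a type and less RNA per cell cannot be told apart.

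MAPK are the last kinases of a relay in which a MAP3K phosphorylates a MAP2K and the MAP2K phosphorylates the MAPK. The ERK arm (MAP2K1 to MAPK3) answers mainly growth factors, while the JNK arm (MAPK8, MAPK9) and the p38 arm (MAP2K3 to MAPK14) answer mainly stress and cytokines. The arms share nuclear targets such as JUN, FOS and ATF2, the components of the AP-1 transcription factor, and many DUSP genes are themselves early targets of the pathway and so close a feedback loop. The activity of these kinases is set by phosphorylation, which RNA sequencing does not read, and every value here is a level of RNA.

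ATF2 and its relatives bind the cAMP response element (CRE, TGACGTCA), and AP-1 binds TGANTCA. For the genes that varied most among the columns, DUSP6, DUSP1 and MAPK14, the 250 bases before the gene start are shown, since they differ in whether they hold such an element. They come from RefSeq on the rat assembly GRCr8 and are written 5′ to 3′, with CRE letters in capitals. They lie at chr20:6751109-6751358 for MAPK14, chr10:17184603-17184852 for DUSP1 and chr7:35979354-35979603 for DUSP6, each on the + strand.
MAPK14: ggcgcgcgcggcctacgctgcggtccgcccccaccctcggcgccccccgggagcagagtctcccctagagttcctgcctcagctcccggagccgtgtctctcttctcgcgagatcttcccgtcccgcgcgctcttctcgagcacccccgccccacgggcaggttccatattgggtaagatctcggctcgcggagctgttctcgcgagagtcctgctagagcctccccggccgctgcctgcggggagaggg
DUSP1: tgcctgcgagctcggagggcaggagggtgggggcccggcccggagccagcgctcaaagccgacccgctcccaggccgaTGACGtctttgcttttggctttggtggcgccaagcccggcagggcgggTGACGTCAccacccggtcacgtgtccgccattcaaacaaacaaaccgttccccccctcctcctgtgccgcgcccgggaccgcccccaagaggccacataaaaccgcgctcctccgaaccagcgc
DUSP6: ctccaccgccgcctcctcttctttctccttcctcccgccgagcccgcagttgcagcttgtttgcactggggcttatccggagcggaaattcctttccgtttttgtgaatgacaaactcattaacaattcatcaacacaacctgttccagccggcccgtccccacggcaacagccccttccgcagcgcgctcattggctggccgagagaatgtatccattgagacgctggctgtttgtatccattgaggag

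The promoter of DUSP1 holds a full TGACGTCA beginning 124 bases before the gene start, and a further TGACG, the first letters of the element, beginning 172 bases before it. Both strands were searched, and TGACG lies within TGACGTCA on each strand. Neither motif nor TGANTCA was found in the windows of MAPK14, DUSP6, MAP2K1, MAP2K3 and ATF2, which says only that these letters are not in these 250 bases. Over 33469 RefSeq promoters of the same length, 1.59% held TGACGTCA, 18.2% held TGACG and 6.34% held TGANTCA. Of the 8 genes, 6 were matched to a promoter, while MAPK3 and MAPK9 were not.

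Among the columns, BA at 4 h stood apart. ALB, the albumin gene, was at 303637 RPKM there, which is 30.9% of the column's total, against 5.60% to 13.4% in the other columns, and the total was 982826 RPKM against 727435 to 785092. The median of the 8459 genes was 8.68 RPKM in that column and between 9.35 and 14.25 RPKM in the others. BF at 12 h held RNA of 6 pancreatic acinar genes at a sum of 123.95 RPKM, where no Control or BA column passed 1.02 RPKM. The hepatocyte markers found (4 of 5 names) summed to between 71771 and 337664 RPKM in the columns. The 5 neutrophil markers, all found, summed to 3.11, 39.2, 63.1 and 27.3 RPKM at 0, 4, 12 and 24 h in Control, to 22.8, 39.5, 49.97 and 36.0 RPKM in BF and to 22.4, 55.5, 51.4 and 54.1 RPKM in BA. Most of each sum came from S100A8 and S100A9, at 24.4 and 37.8 RPKM at 12 h in Control. MPO, CSF3R and CAMP were at most at 0.07, 0.96 and 0.25 RPKM in any column. The part of these markers in the changes over time given below, those of MAPK14, MAPK9 and DUSP1 in Control among them, was not tested.

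Over the 12 columns MAPK14 had the highest mean of the 8 genes, at 58.4 RPKM, followed by DUSP1 at 58.0 RPKM, MAPK9 at 36.1 RPKM and DUSP6 at 27.1 RPKM. MAP2K1 averaged 21.2 RPKM, MAP2K3 19.2 RPKM, ATF2 17.2 RPKM and MAPK3 13.8 RPKM. RPKM are per transcript length, so that these levels can be set side by side, but without a spread between rats the order of neighbours cannot be told apart. DUSP6 varied the most among the columns, by 6.10-fold between its lowest and highest level, and DUSP1 by 3.61-fold. ATF2 varied the least, by 1.56-fold, followed by MAP2K1 at 1.64-fold. MAPK14 was the first of the 8 in level at 4 and 24 h and the second at 0 and 12 h, in each of the 3 groups.

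**Figure D1:**
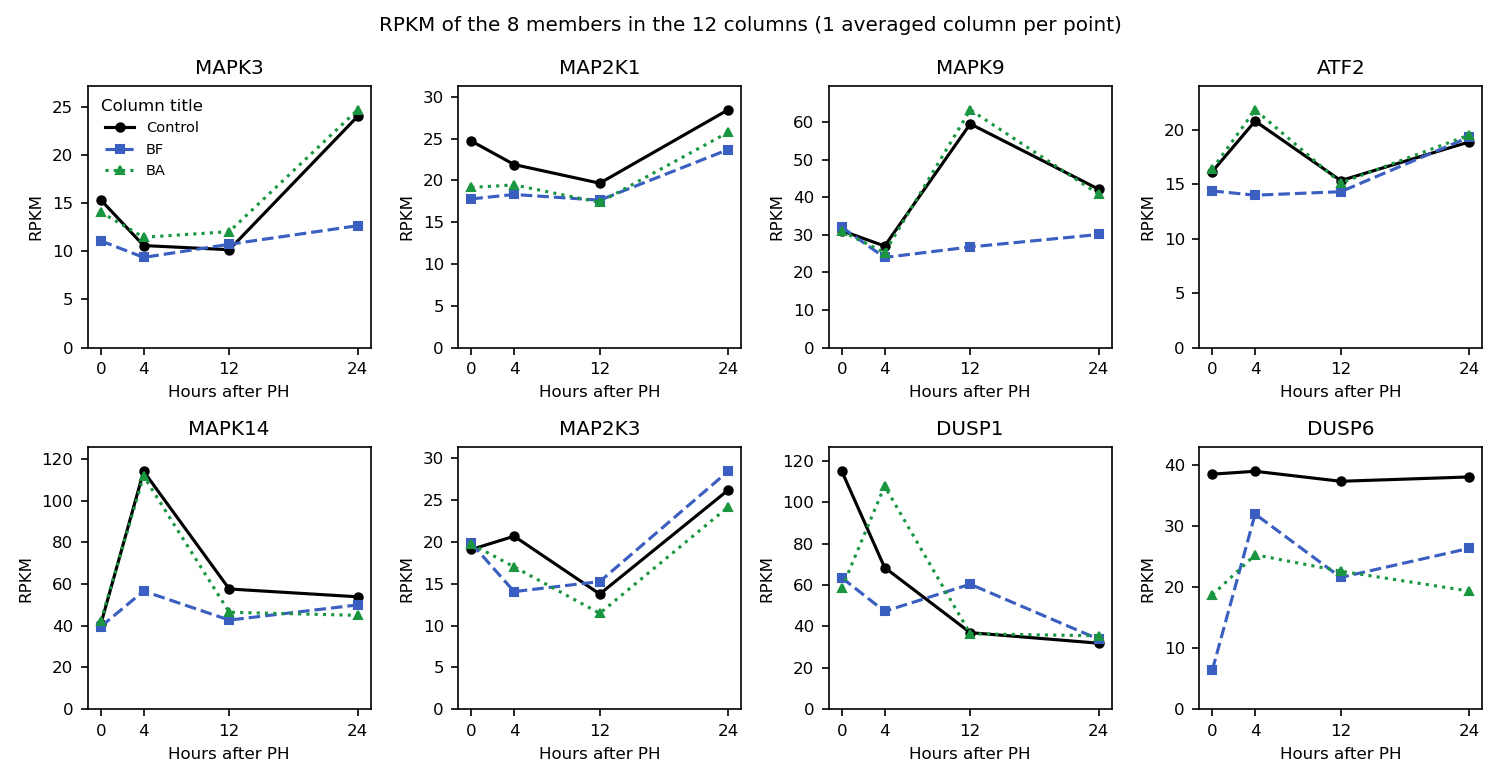
RPKM (y axis, from 0, its own scale in each panel) of the 8 genes against hours after PH, with 1 averaged column per point and no error bars since no spread is known. Black circles are Control, blue squares BF and green triangles BA. MAPK14 peaked at 4 h in Control and BA at 114.1 and 111.8 RPKM and reached 56.6 RPKM in BF, while MAPK9 peaked at 12 h in Control and BA.

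In the p38 arm, MAPK14, which encodes p38 alpha, had a peak at 4 h after PH. It was at 40.8 RPKM at 0 h, 114.1 at 4 h, 57.6 at 12 h and 53.9 at 24 h in Control. In BA the levels were 42.2, 111.8, 46.5 and 45.0 RPKM at the same times. In BF they were 39.6, 56.6, 42.7 and 49.98 RPKM. The 3 groups thus lay between 39.6 and 42.2 RPKM at 0 h, and at 4 h Control and BA stood together far above BF. By 12 h the levels in BF and BA were back near those at 0 h, and Control was still above its own.

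Between 0 and 4 h the log2 ratio of MAPK14 was 1.46 in Control and 1.38 in BA, past 2-fold in both, and 0.51 in BF. As a background, 4.01% of the 8459 genes rose at least 2-fold in Control over this interval, 5.13% in BF and 4.61% in BA. MAPK14 was the only one of the 8 to do so in Control and in BA. A log2 ratio at least as high was reached by 2.13% of the genes in Control, 14.7% in BF and 2.57% in BA. The log2 ratio of the median gene itself was -0.19 for Control, -0.072 for BF and -0.32 for BA, and relative to it MAPK14 was higher at 4 h by 1.65, 0.58 and 1.70 in that order.

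The other kinase genes among the 8 did not share this. MAPK3, MAPK9, MAP2K1 and MAP2K3 had log2 ratios at 4 h against 0 h between -0.49 and 0.11 in Control, between -0.47 and 0.04 in BF and between -0.28 and 0.02 in BA. MAPK14 exceeded the median of these 4 kinases by 1.64 in Control, 1.62 in BA and 0.82 in BF. The ratio of MAPK14 was above that of each of the 4 in all 3 groups, the smallest gap being in BF, where MAP2K1 followed at 0.04. At 12 h MAPK14 exceeded their median by 0.87 in Control, 0.25 in BF and 0.31 in BA, and at 24 h by -0.04, 0.04 and -0.31. Outside the 8, the kinase gene MAPK6 was also highest at 4 h in each group. From 0 to 4 h it went from 31.3 to 47.4 RPKM in Control, 22.6 to 34.4 in BF and 26.4 to 51.4 in BA. Each of these rises was under 2-fold.

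**Figure D2:**
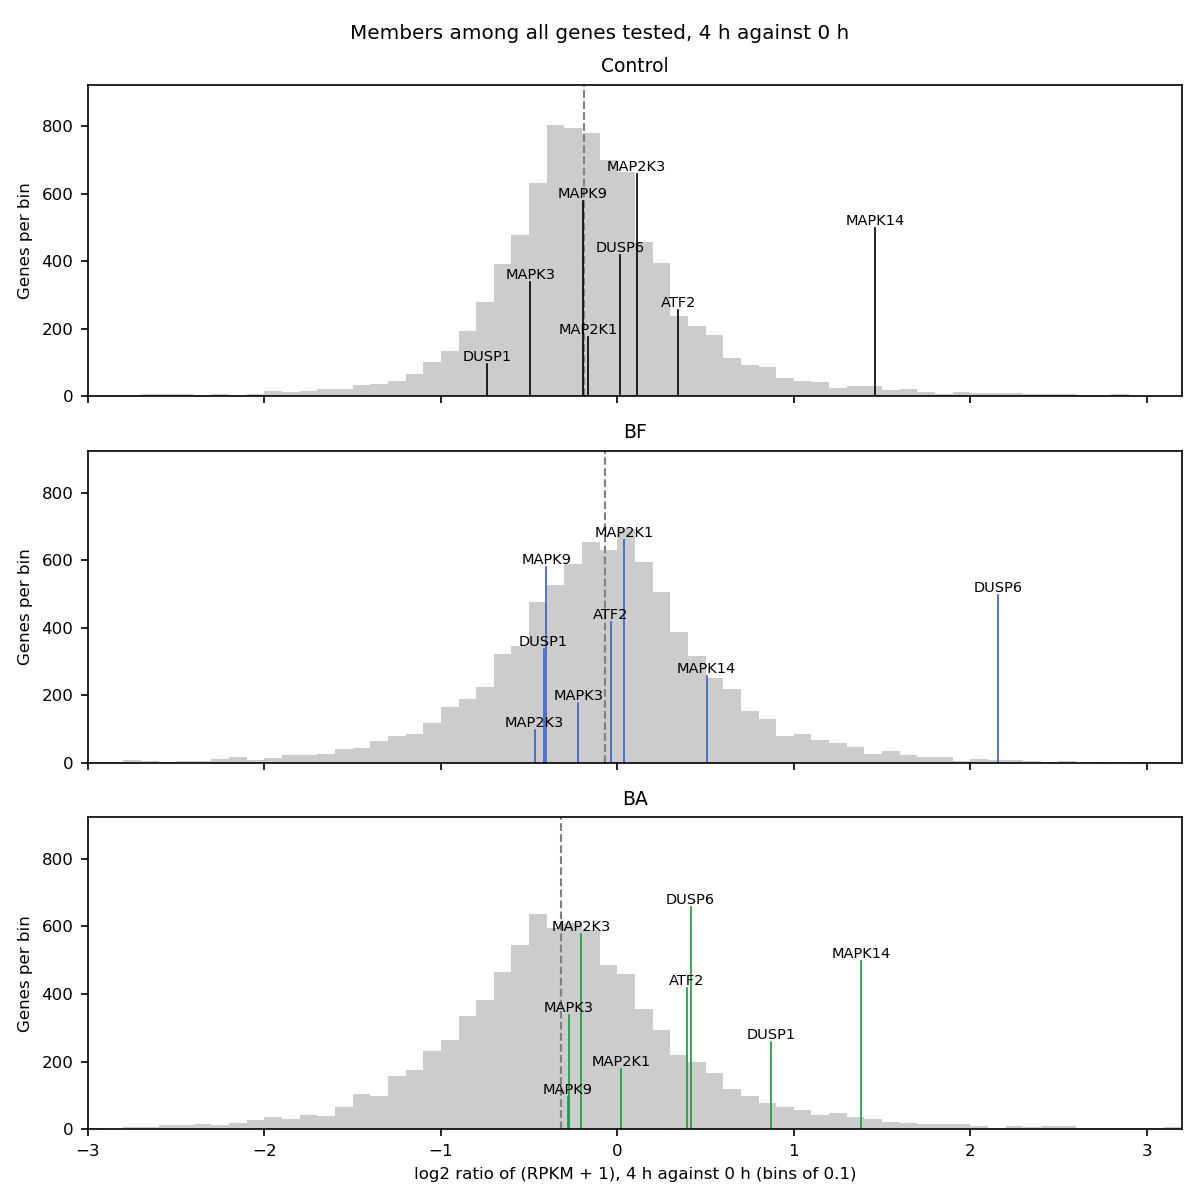
Number of genes (y axis, of 8459) in bins of 0.1 of the log2 ratio of (RPKM + 1) at 4 h against 0 h (x axis), in Control, BF and BA from top to bottom, with the 8 genes as coloured lines whose heights serve only to separate the names. The dashed line is the median of all genes (-0.19, -0.072 and -0.32), and genes beyond the ends of the axis are not drawn. MAPK14 stood in the right tail in Control and BA, and DUSP6 in BF.

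Between the groups at 4 h, MAPK14 in BF had a log2 ratio to Control of -0.998, a 1.997-fold difference just inside the 2-fold limit, and a ratio to BA of -0.97. BA itself had a ratio to Control of -0.03. A ratio to Control at least as low was found for 3.18% of the 8459 genes, and a ratio to BA at least as low for 2.47%. Both stand near the limit. With a pseudocount of 0.1 RPKM the ratio to Control became -1.01 and the ratio to BA -0.98, and with the columns rescaled on their median gene they became -0.90 and -1.11. Rescaled on the total without the 10 most abundant genes, the ratio to BA became -1.02. The BA value comes from the column with the high ALB share, whose part in the result was not tested. The comparison of BF with Control does not use that column. The comparisons share the BF or the Control column and are not independent.

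MAPK14 made up nearly all p38 RNA of these livers. MAPK11, MAPK12 and MAPK13, which encode the other p38 kinases, were at most at 1.54, 2.44 and 0.29 RPKM in any column. The share of MAPK14 in their summed RPKM ranged from 92.1% in BF at 0 h to 98.7% in BA at 4 h. At 4 h the 4 genes summed to 116.0 RPKM for Control, 59.2 for BF and 113.3 for BA, so that the p38 total followed MAPK14.

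MAP2K3 (MKK3), which phosphorylates p38, did not move with MAPK14. In Control it was at 19.1 RPKM at 0 h, 20.7 at 4 h, 13.8 at 12 h and 26.2 at 24 h. In BF it was at 19.9, 14.1, 15.3 and 28.5 RPKM, and in BA at 19.8, 17.0, 11.5 and 24.2 RPKM. Each group had its lowest value at 4 or 12 h and its highest at 24 h, and no later time reached 2-fold against 0 h. MAP2K3 in BF at 4 h had a log2 ratio of -0.53 to Control and -0.26 to BA. MAP2K6 (MKK6), the other main kinase above p38, was much weaker, at 5.37 RPKM in Control at 0 h, 2.42 at 4 h and 2.17 at 12 h, the last a fall past 2-fold. In BF it was at 1.89 RPKM at 0 h and 0.54 at 4 h, and in BA at 1.74 and 0.19 RPKM, the fall in BA passing 2-fold with a log2 ratio of -1.20. A further MAP2K, MAP2K4 (MKK4), averaged 20.7 RPKM over the columns. From 0 to 4 h it went from 20.0 to 25.9 RPKM in Control, 17.5 to 17.7 in BF and 19.5 to 25.6 in BA, under 2-fold in each.

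In the ERK arm, MAPK3 (ERK1) was at 15.3 RPKM at 0 h, 10.6 at 4 h, 10.2 at 12 h and 24.0 at 24 h in Control. In BA it was at 14.0, 11.4, 12.0 and 24.7 RPKM. The levels in BF were 11.1, 9.35, 10.7 and 12.6 RPKM. The groups stood apart at 24 h and not at 4 or 12 h. At 24 h MAPK3 in BF had a log2 ratio of -0.87 to Control and -0.91 to BA, under 2-fold in both, with 1.77% and 1.22% of the 8459 genes at least as low. The ratio of BA to Control was 0.04. From 0 to 24 h the ratio was 0.62 in Control, 0.77 in BA and 0.18 in BF.

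MAP2K1 (MEK1), which phosphorylates ERK, was the second steadiest of the 8 genes. It was at 24.7, 21.9, 19.7 and 28.4 RPKM at 0, 4, 12 and 24 h in Control. BF had 17.8, 18.3, 17.6 and 23.7 RPKM, and BA had 19.2, 19.5, 17.4 and 25.7 RPKM. All 3 groups were highest at 24 h, and BF and BA were below Control at each time, the largest difference being a log2 ratio of -0.45 in BF at 0 h. Between MAP2K1 and MAPK3, Pearson's r over the 12 columns was 0.81, the highest of the 28 pairs of the 8 genes, and between MAP2K1 and MAP2K3 it was 0.77. These columns share sham or fistula surgery, PH and the scaling to library totals, and r is given as a description.

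In the JNK arm, MAPK9 (JNK2) had its highest values at 12 h. It was at 31.1, 27.0, 59.6 and 42.2 RPKM at 0, 4, 12 and 24 h in Control. In BA it was at 31.0, 25.3, 63.3 and 40.9 RPKM. BF had 32.1, 24.0, 26.8 and 30.1 RPKM. Control and BA nearly coincided at each time, and BF lacked the 12 h peak. The log2 ratio from 0 to 12 h was 1.01 in BA, just past 2-fold, 0.91 in Control and -0.25 in BF. Rescaled on the median gene the Control ratio became 1.12, and on the total without the 10 most abundant genes 1.08, past 2-fold in both. Over this interval 1.29% of the 8459 genes rose at least 2-fold in BA, 3.96% in Control and 2.46% in BF, and MAPK9 was the only one of the 8 to rise in BA.

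At 12 h MAPK9 in BF had a log2 ratio of -1.12 to Control and -1.21 to BA, and MAPK9 was the only one of the 8 past 2-fold in either. Of the 8459 genes, 1.68% were at least 2-fold lower in BF than in Control and 0.757% at least 2-fold lower than in BA. The BF column at 12 h is the one with pancreatic acinar RNA (6 of 6 markers found, none at 0 in all columns, summed 123.95 RPKM against 0.12 to 1.02 RPKM in the Control and BA columns), and its part in the result was not tested. At 24 h MAPK9 in BF had a log2 ratio of -0.47 to Control and -0.43 to BA, under 2-fold in both. MAPK10 (JNK3), a mainly neuronal kinase, was at most at 0.15 RPKM in any column.

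ATF2, a transcription factor that p38 and JNK phosphorylate, was at 16.2, 20.8, 15.3 and 18.9 RPKM at 0, 4, 12 and 24 h in Control. In BA it was at 16.4, 21.8, 15.1 and 19.5 RPKM. BF had 14.4, 14.0, 14.3 and 19.3 RPKM. Control and BA had a small peak at 4 h that BF lacked, and the groups lay close at the other times. At 4 h ATF2 in BF had a log2 ratio of -0.54 to Control and -0.61 to BA, and 9.74% of the 8459 genes had a ratio to Control at least as low. No ratio of ATF2 between times or groups reached 2-fold. Between ATF2 and MAPK14, Pearson's r over the 12 columns was 0.66.

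Among the phosphatases, DUSP1 (MKP-1), which dephosphorylates p38 and JNK in the nucleus, followed another course in each group. In Control it was at 115.0 RPKM at 0 h, 68.5 at 4 h, 37.0 at 12 h and 31.9 at 24 h, the highest level at the time of PH and the lowest at the end. In BA it was at 58.5 RPKM at 0 h and 107.9 at 4 h, and then at 36.4 and 35.5 RPKM. The BF levels were 63.5, 47.3, 60.4 and 33.8 RPKM. All groups thus ended between 31.9 and 35.5 RPKM, from starting levels between 58.5 and 115.0 RPKM.

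From 0 to 4 h the log2 ratio of DUSP1 was -0.74 in Control, -0.42 in BF and 0.87 in BA, none past 2-fold. In Control it had fallen past 2-fold by 12 h, by 1.61 on the log2 scale, and by 24 h, by 1.82. It was the only one of the 8 to fall in Control at either time, where 9.94% and 3.03% of the 8459 genes fell at least 2-fold. At 24 h 0.662% of the genes had a ratio as low as that of DUSP1 in Control. In BA and BF the ratios from 0 to 24 h were -0.71 and -0.89, with lower starting levels.

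Between groups, DUSP1 at 0 h was lower than in Control by a log2 ratio of -0.85 in BF and -0.96 in BA, and the groups with a fistula differed by 0.12. The neutrophil markers, mainly S100A8 and S100A9, also differed at this time, at a sum of 3.11 RPKM in Control, 22.8 in BF and 22.4 in BA. Macrophage markers summed to 223.4 RPKM in Control, 170.6 in BF and 163.9 in BA, and lymphocyte markers to 3.26, 1.24 and 1.55 RPKM. The hepatocyte, endothelial and stellate sums were also highest in Control, and the cholangiocyte sum was highest in BF. The part of these markers in the result was not tested. At 4 h DUSP1 had a log2 ratio to Control of -0.52 in BF and 0.65 in BA, and BF stood at -1.17 to BA. DUSP1 was the only one of the 8 past 2-fold in BF against BA at 4 h, where 2.33% of the 8459 genes were at least 2-fold lower. The BA level rests on the column with 30.9% of its RPKM in ALB, whose part in the result was not tested. Rescaled on the median gene, the ratio from 0 to 4 h in BA became 1.14, past 2-fold. Rescaled on the total without the 10 most abundant genes, this ratio became 1.01, also past 2-fold. At 12 h the order turned, with DUSP1 in BF above Control by 0.69 and above BA by 0.71. That BF column is the one with acinar RNA at 123.95 RPKM, whose part in the result was not tested.

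DUSP6 (MKP-3), a cytoplasmic phosphatase for ERK and a known target of ERK signaling, held one level in Control throughout. It was at 38.5, 39.0, 37.3 and 38.04 RPKM at 0, 4, 12 and 24 h. In BF it was at 6.39, 32.0, 21.6 and 26.3 RPKM, and in BA at 18.7, 25.3, 22.6 and 19.3 RPKM. Control was above both groups with a fistula at every time. BF had the lowest value of all columns at 0 h and was above BA at 4 and 24 h.

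At 0 h DUSP6 had a log2 ratio to Control of -2.42 in BF and -1.003 in BA, and BF stood at -1.42 to BA. Of the 8 genes only DUSP6 was past 2-fold in these comparisons. At least a 2-fold lower value was found for 2.16%, 2.15% and 1.39% of the 8459 genes in the same order, and 0.177% of the genes had a ratio of BF to Control as low as that of DUSP6. The value of BA against Control was 2.004-fold and came to -0.90 when the columns were rescaled on the median gene. The differences in cell type markers given for DUSP1 hold for these columns too, and their part in the result was not tested. From 0 to 4 h DUSP6 rose in BF by a log2 ratio of 2.16, the only one of the 8 to do so there, and 0.449% of the 8459 genes rose as much. The ratio was 0.42 in BA and 0.02 in Control. In BF it remained past 2-fold at 12 h (1.61, in the column with acinar RNA, whose part was not tested) and at 24 h (1.89), where 2.46% and 9.27% of the genes rose at least 2-fold. At 4 h BF was at -0.28 and BA at -0.60 against Control.

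**Figure D3:**
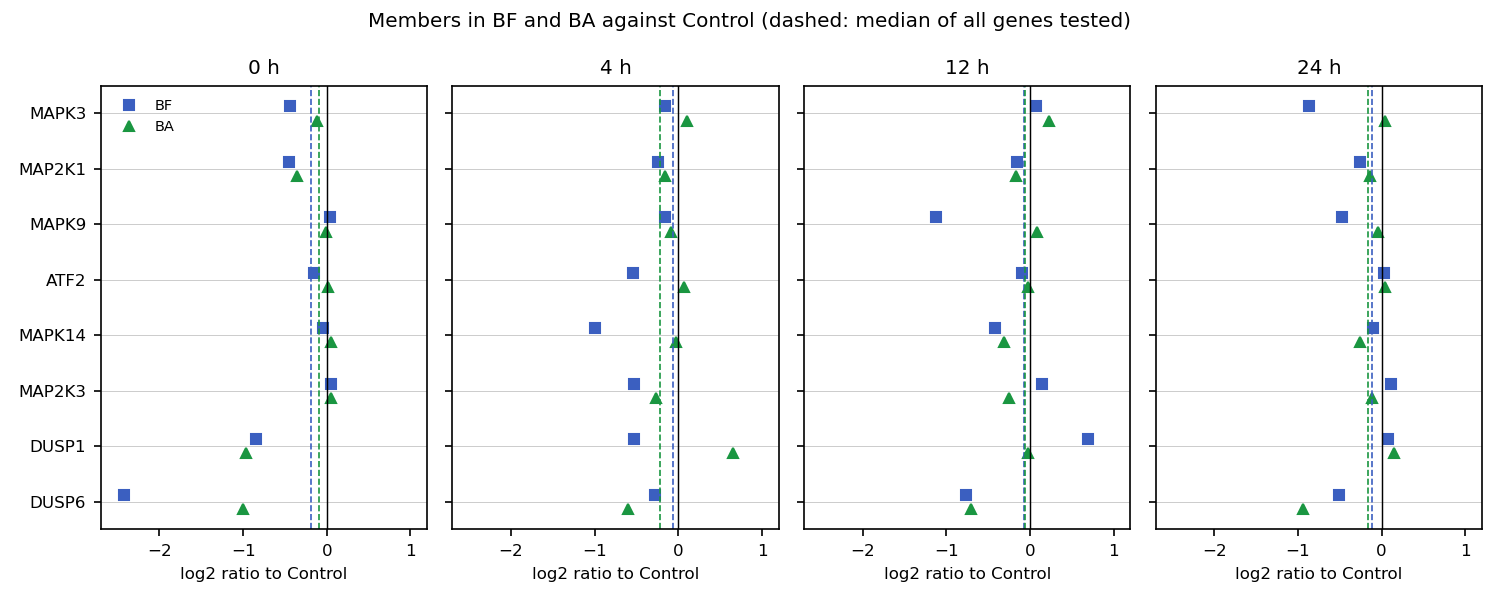
Log2 ratio of (RPKM + 1) to Control (x axis) for the 8 genes (y axis) at 0, 4, 12 and 24 h, with blue squares for BF, green triangles for BA, 1 averaged column per point and no error known. The solid line marks no difference and the dashed lines the median of 8459 genes. DUSP6 stood at -2.42 in BF at 0 h, all 8 BF points lay below 0 at 4 h, and MAPK9 stood at -1.12 in BF at 12 h.

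Set together, all 8 genes were lower in BF than in Control at 4 h, where 59.4% of the 8459 genes were, and none of the 8 was past the 2-fold limit, where 4.35% of the genes were. The 8 were chosen with earlier results of these data known, so that these counts are a description and no independent support. Their median log2 ratio was -0.40 and that of all genes -0.067, and each of the 8 was also lower relative to the median gene. Against BA at this time 7 of 8 were lower in BF, where 32.2% of all genes were, with a median of -0.26 against 0.15. In BA against Control 3 were higher and 5 lower, none past 2-fold, against 7.28% of all genes past it, and the median was -0.06 against -0.22. At 0, 12 and 24 h, 6, 5 and 5 of the 8 were lower in BF than in Control, against 73.9%, 59.2% and 71.3% of all genes. At 24 h none of the 8 was past 2-fold between any groups, where 2.08% of all genes were in BF against Control, 2.05% in BA against Control and 1.86% in BF against BA.

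Over all 21 comparisons, 9 between times and 12 between groups, 14 of 168 ratios of the 8 genes reached 2-fold, or 8.33%. These came from 4 genes, MAPK14, MAPK9, DUSP1 and DUSP6, while MAPK3, MAP2K1, MAP2K3 and ATF2 never reached it. Without the comparisons that use the BA column at 4 h or the BF column at 12 h, 9 of 120 ratios did (7.5%). The share of all 8459 genes past 2-fold ranged from 1.71% in BA against Control at 12 h to 17.8% in BA between 0 and 4 h. Without the comparisons that use those columns it ranged from 1.71% to 13.9%, the latter in Control between 0 and 12 h. The shares of the 8 genes are pooled over comparisons, while these ranges are of single comparisons, so that lying within them says little. No difference from all genes is read from these shares.

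The wider pathway was read from a list of 108 names, of which 89 were found and 77 averaged 1 RPKM or more. This list too was chosen with earlier results of these data known, and its counts are a description. From 0 to 4 h, 7 of these 77 rose at least 2-fold and 1 fell in Control, 8 rose and 2 fell in BF, and 9 rose and 4 fell in BA. In all genes 4.01% rose and 5.19% fell in Control, 5.13% and 6.92% in BF, and 4.61% and 13.2% in BA. The median of the list was -0.05 in Control, 0.02 in BF and 0.02 in BA. At 4 h, 63 of the 77 were lower in BF than in Control, where 59.4% of all genes were, with a median of -0.17 against -0.067 for all genes. Against BA, 45 of 77 were lower in BF, where 32.2% of all genes were. The BA values at 4 h here and in the genes below rest on the column with 30.9% of its RPKM in ALB, whose part in them was not tested.

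Above the MAP kinases, 9 genes of the MAP3K tier, among them 2 genes of adaptors (TAB1 and TAB2), and 7 MAP2K genes were compared. MAP3K1 fell in Control from 4.99 to 1.96 RPKM and in BF from 4.29 to 1.55 RPKM, and MAP3K4 fell in BA from 5.05 to 1.54 RPKM. The most abundant kinase of its tier was MAP2K2 (MEK2), at 95.9 RPKM in Control at 0 h and 77.9 at 4 h. The scaffold MAPK8IP1 fell in BA from 4.10 to 1.36 RPKM, while MAP2K1IP1, a scaffold of the ERK arm, and MAP3K7IP2 (TAB2) reached 2-fold in none of the groups. None of the genes of the MAP3K and MAP2K tiers rose or fell past 2-fold in all 3 groups.

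Below them, MAPKAPK2 (MK2), a kinase that p38 phosphorylates, did not follow MAPK14 among the groups. Control had 21.3 RPKM of it at 0 h and 29.2 at 4 h, BF had 20.6 and 71.96, and BA had 18.7 and 59.8. At 4 h its log2 ratio to Control was 1.27 in BF and 1.01 in BA, and it was the 1 gene of the 77 past 2-fold upward in either. MKNK1, which ERK and p38 phosphorylate, rose past 2-fold in BF (8.17 to 18.1 RPKM) and went from 8.27 to 14.9 RPKM in Control and from 8.12 to 15.5 RPKM in BA. Its relative MKNK2 fell past 2-fold in BF from 37.4 to 12.0 RPKM and in BA from 44.0 to 10.5 RPKM, and went from 38.7 to 20.3 RPKM in Control.

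Among the 5 DUSP genes that averaged 1 RPKM or more, DUSP8 rose past 2-fold in all groups from 0 to 4 h, from 0.74 to 3.64 RPKM in Control, 0.30 to 2.85 in BF and 0.87 to 4.97 in BA. DUSP6 rose in BF and DUSP1 in none. Of the other phosphatases, PPP2CA, the catalytic subunit of protein phosphatase 2A, had 5.87 RPKM at 0 h and 12.96 at 4 h in Control, 6.06 and 8.82 in BF, and 5.87 and 13.2 in BA, past 2-fold in Control and BA as MAPK14 was. PPM1A, another phosphatase for stress-activated kinases, was the most abundant of this group and stayed inside 2-fold. SPRY4, an inhibitor of Ras signaling, rose in BA from 1.14 to 4.53 RPKM and was at 0.77 RPKM at both times in BF. ERRFI1, an inhibitor of the EGF receptor with the highest level on the list, was at 519.98 RPKM at 4 h in Control and at 339.3 and 405.6 RPKM in BF and BA.

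**Figure D4:**
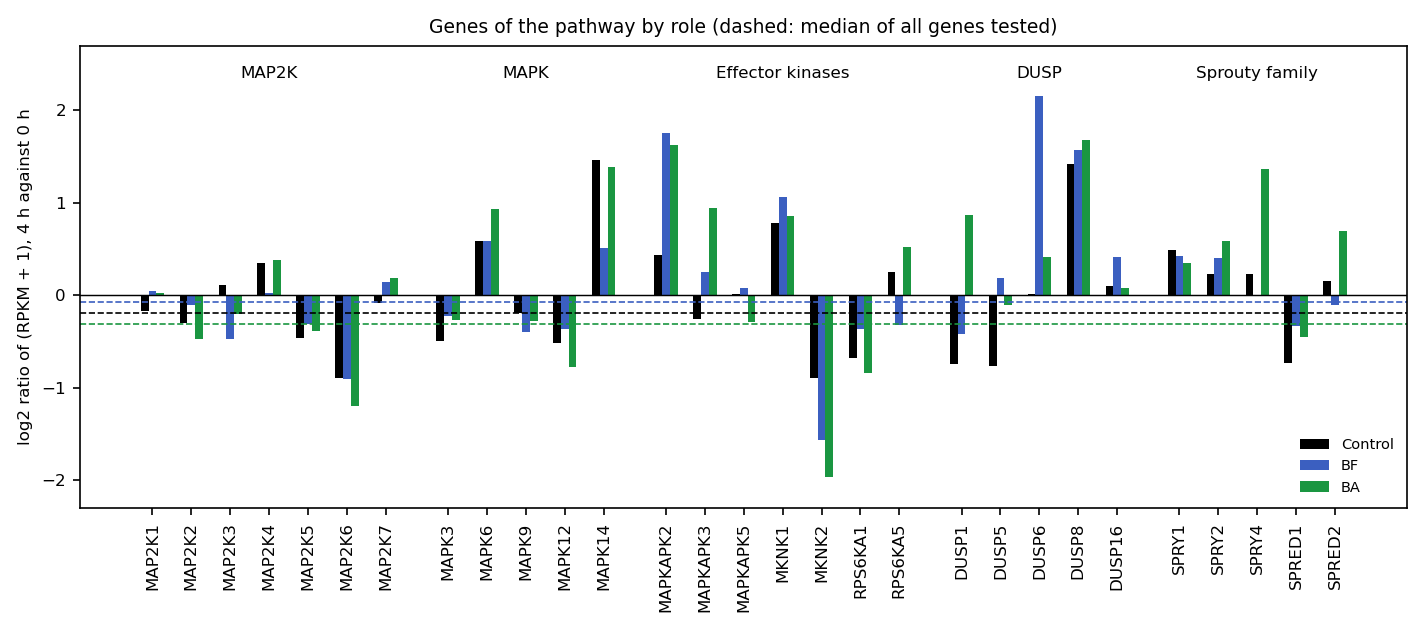
Log2 ratio of (RPKM + 1) at 4 h against 0 h (y axis) for genes shown here, all averaging 1 RPKM or more, in the MAP2K, MAPK, effector kinase, DUSP and Sprouty groups (x axis), with black bars for Control, blue for BF and green for BA, 1 averaged column each and no error known. Dashed lines are the median of all 8459 genes in each group. MAPK14 reached 1.46, 0.51 and 1.38 in Control, BF and BA, while MAPKAPK2 reached 0.44, 1.76 and 1.62.

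Of 16 target transcription factors, 4 rose past 2-fold from 0 to 4 h in Control (FOS, JUNB, MYC and EGR1), 4 in BF (ATF3, JUNB, MYC and EGR1) and 3 in BA (FOS, JUNB and MYC), and none fell. Of all genes 4.01%, 5.13% and 4.61% rose in the same order. JUNB, which pairs with FOS in AP-1, reached 86.6 RPKM at 4 h for Control, 75.5 for BF and 77.2 for BA, from 17.9, 15.5 and 27.8 RPKM at 0 h. FOS in BF at 4 h had a log2 ratio of -1.08 to Control and -1.39 to BA, at levels of at most 4.70 RPKM. JUN was at 30.1 RPKM at 0 h and 27.5 at 4 h in Control, 7.70 and 14.8 in BF, and 25.5 and 34.7 in BA. Its level in BF was at least 2-fold below Control and BA at 0 h, and at 4 h below BA only. EGR1 stood in BA at 16.0 RPKM at 0 h and 13.7 at 4 h, where Control went from 2.73 to 21.2 RPKM and BF from 3.12 to 20.98 RPKM.

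Ranked by Pearson's r of log2(RPKM + 1) over the 12 columns, the genes most like MAPK14 were YOD1 (r = 0.98), RGD1309492 (0.97), PTPN1 (0.96), MOBKL3 (0.96) and SLC41A1 (0.96). PTPN1, a tyrosine phosphatase, reached 42.1 RPKM at 4 h in Control, 17.0 in BF and 44.1 in BA. Without the BA column at 4 h, 2 of these 5 genes were again among the 5 most alike, and without the BF column at 12 h, 4 were. For DUSP1 the leading genes were CPEB4 (0.87), ELL (0.85), THRSP (0.85), LOC363326 (0.84) and SLC46A1 (0.82), and none of them was among the leading 5 without the BA column at 4 h. For DUSP6 they were TPP2, THAP7, EIF3G, PHB and ZNHIT6, of which 2 were again among the 5 without the BA column at 4 h and 3 without the BF column at 12 h. With 12 columns of shared surgery and scaling, these are descriptions of the columns.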

How the data were processed

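RNA of whole liver was sequenced for Control, BF and BA rats at 0, 4, 12 and 24 h after PH. The authors deposited 1 table of RPKM values with 2 decimals, 1 column per group and time, each made from 2 runs. The submitters' processing notes name CASAVA, Bowtie 0.12.2 and the builds mm8 and rn4, with no role given for either build. Columns of no sample among those read numbered 0. Depth is unknown. With 1 averaged column per group and time no difference at a single time could be tested, and differences over the 4 times, which are not replicates, were not tested.

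Log2 ratios of (RPKM + 1) were computed in Python (version 3.11.15) with pandas 2.3.3 and numpy 2.4.6. Plots were drawn with matplotlib 3.10.9. The background was the 8459 genes whose mean was 1 RPKM or more, and the limit was 2-fold. The calculation was tested on simulated columns. The members and the lists were chosen with earlier results of these data known. Named were all members, the pathway genes past 2-fold at 4 h (against 0 h or between groups) or with the highest mean of their role, and the 5 genes most correlated with MAPK14, DUSP1 and DUSP6. MAPK10, MAPK11, MAPK12 and MAPK13 were added to give family totals, MAPK6 beside MAPK14, and MAP2K4 beside MAP2K3 and MAP2K6, after values were seen. Some genes that this rule selects are left out of the text, though counts over the list include them. Older symbols stand for TAB1 and TAB2. Promoters came from RefSeq (GRCr8). Alternatives were a pseudocount of 0.1 RPKM, columns rescaled on the median gene or on the total without the 10 most abundant genes, a limit of 1.5-fold, backgrounds of genes above 0 or averaging 5 RPKM, and BF and BA exchanged. Leaving out the doubted columns was chosen after seeing the data.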

Additional observations from a re-analysis of the deposited data

Results flagged for a closer look

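In several genes the log2 ratio of (RPKM + 1) from 0 h to a later time had opposite signs in 2 groups. With 1 averaged column per group and time, none of these differences was tested, and many are small. Among the phosphatases, DUSP1 at 4 h was at -0.74 in Control and -0.42 in BF but at 0.87 in BA, differences of 1.61 and 1.29, which rest on the BA column with the high ALB share. DUSP6 was at -0.04 in Control at 12 h, at 1.61 in BF and at 0.26 in BA, differences of 1.65 and 0.30, and at 24 h it was at -0.02, 1.89 and 0.05, differences of 1.90 and 0.062. MAPK9 at 12 h was at 0.91 in Control and 1.01 in BA but at -0.25 in BF, differences of 1.16 and 1.26, and at 24 h at 0.43, 0.39 and -0.09, differences of 0.51 and 0.48. At 4 h ATF2 was at 0.34 in Control and 0.39 in BA but at -0.04 in BF, differences of 0.38 and 0.43. MAP2K3 at 4 h was at 0.11 in Control, -0.47 in BF and -0.20 in BA, differences of 0.58 and 0.31. MAP2K1 at 4 h was at -0.17 in Control, 0.04 in BF and 0.02 in BA, differences of 0.21 and 0.19.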

How the results depend on the processing

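No paired analysis was possible because each group and time has 1 averaged column, with no replicate numbers to pair, and no result comes from a test; group differences paired over the 4 times were not tested. For the same reason no replicate could be left out. A value was taken as moved when it shifted by more than 1.5-fold, a wide limit for ratios of this size. MAPK14 in BF from 0 to 4 h (0.51) could vanish and not count as moved. The counts that follow therefore do not show that small ratios hold. Apart from the exchange of group names, 105 of 107 values of the main results did not move under another pseudocount, scaling, limit or background. The count of ratios past 2-fold (14 of 168) became 37 at a limit of 1.5-fold, which 5.93% to 40.1% of all genes passed depending on the comparison, and 9 (of 120) without the comparisons that use BA at 4 h or BF at 12 h. Of 552 ratios and medians under these settings 52 had another sign, all of them ratios that were inside 1.5-fold in the main setting. Rescaling on the median gene took DUSP1 at 4 h in BA to 1.14, MAPK9 at 12 h in Control to 1.12, DUSP1 at 24 h in BF to -1.29 and MAPK14 in BF against BA at 4 h to -1.11, all then past 2-fold, and DUSP6 in BA against Control at 0 h to -0.90, then inside it.

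With BF and BA exchanged, as the source names and descriptions read, the log2 ratios at 4 h against 0 h became, for BF, 1.38 for MAPK14 (1.62 above the other kinases), 0.87 for DUSP1 and 0.42 for DUSP6, and for BA 0.51 (0.82), -0.42 and 2.16. At 4 h against Control, BF was then at -0.029 for MAPK14 (0.099 above the other kinases) and 0.65 for DUSP1, and BA at -0.998 (-0.79) and -0.52. BF against BA at 4 h was 0.97 for MAPK14 (0.80), 1.17 for DUSP1 and -0.33 for DUSP6. DUSP6 in BF against BA at 0 h became 1.42. MAPK9 at 12 h became -0.25 against 0 h in BA, and the ratio of BF became 0.087 to Control and 1.21 to BA. These shifts follow from the exchange itself.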
